A study of Homo sapiens with 2 samples.

Results

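The genes described are the 5 subunits of replication factor C (RFC1, RFC2, RFC3, RFC4 and RFC5) together with the subunits that turn the same core into alternative clamp loaders (RAD17, ATAD5, CHTF18, DSCC1 and CHTF8). They were chosen by complex membership and by name, and all 10 were found among the 19198 genes of the deposited tables. The tables come from mRNA sequencing of polyA RNA from a single library of A549-NICD1 cells and a single library of A549-Vector cells, so that neither condition had a replicate and no p-value is given. A549 is an established cell line that the labels assign to non-small cell lung cancer. The A549-NICD1 culture overexpressed NICD1, the intracellular domain that is cut from the NOTCH1 receptor and acts in the nucleus, and the A549-Vector culture was its vector control. According to the methods of the study, stable lines were made by lentiviral or retroviral infection followed by antibiotic selection, with the NICD1 open reading frame in a pSin-EF2 lentiviral vector. The methods also describe pSin-EF2 constructs that carry the RFC4 open reading frame, which the labels list for neither of the 2 cultures. Because the tables hold 1 value per gene, transcripts of the RFC4 gene of the cells cannot be told apart from those of any other RFC4 sequence.

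Clamp loaders are ATP-driven machines, built around 5 different AAA+ subunits, that open ring-shaped sliding clamps and place them on, or take them off, DNA. In the canonical loader RFC1 is the large subunit, and RFC2, RFC3, RFC4 and RFC5 form the small-subunit core that loads PCNA, the clamp that tethers DNA polymerases delta and epsilon. In the alternative loaders the large subunit is exchanged while the core is shared. RAD17 then loads the 9-1-1 checkpoint clamp (RAD9, HUS1 and RAD1) at damaged DNA, ATAD5 unloads PCNA, and CHTF18, together with DSCC1 and CHTF8, forms the CTF18 loader that acts with polymerase epsilon and in sister chromatid cohesion. Each complex needs its subunits side by side, so the mRNA levels of the 10 genes were compared within each library as well as between the libraries. These values do not measure protein, so ratios of mRNA levels do not give the make-up of the complexes.

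The values gave a depth of 48528434 reads for the A549-NICD1 library and of 48602848 reads for the A549-Vector library. The values are FPKM, that is, reads divided by gene length and by the depth of the library, and levels of different genes are compared below only on this per-length scale. Fold changes are log2 ratios of A549-NICD1 over A549-Vector after a scaling factor of 0.957 and with 0.1 FPKM added to each value, which understates the change of low genes. A total of 12449 genes with at least 1 FPKM in a library were tested for a 2-fold change. The intervals beside values are 95% intervals that describe the error of counting alone. PCR copies were not marked by molecular identifiers, so even this error can be understated, and culture-to-culture variation was not measured.

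Most known markers of the labelled cell line were near absent. Among 12 A549 markers, 8 lay under 1 FPKM in both libraries among which KRT7, FGA and FGB had a value of 0 in each, and the summed level of the list was 17.1 FPKM with NICD1 and 16.4 FPKM in the vector control. The highest A549 marker was ANXA1, at 11.4 and 11.1 FPKM, followed by CD44 at 2.13 and 1.57 FPKM. Of 8 genes listed for HEK293, a human embryonic kidney line, 7 reached 1 FPKM in both libraries, with sums of 233 and 247 FPKM. PEG10 lay under 1 FPKM in both, and SOX11 (2.24 and 1.68 FPKM) and PAX2 (1.77 and 3.02 FPKM) were low. The list includes CDKN2A and MTAP, and CDKN2A alone gave most of its sum. CDKN2A, a cell cycle inhibitor gene that A549 is known to have lost, stood at 138 and 139 FPKM, and its neighbour MTAP, lost with it in A549, at 10.1 and 11.0 FPKM. The names A549-NICD1 and A549-Vector are therefore used for the libraries as labelled. The marker sums lay close to each other in the 2 libraries, and the part of the cells' identity in the values below was not tested.

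RFC4 stood apart from every other clamp loader gene. Its level was 4075 FPKM in A549-NICD1 and 39.5 FPKM in A549-Vector, and the levels of the other 9 genes lay between 15.8 and 61.8 FPKM in both libraries. By deposited FPKM, RFC4 held rank 1 of 19198 with NICD1 and rank 2097 in the vector control. The FPKM of NOTCH1, of which only the NICD1 part was overexpressed, is divided by the length of the whole gene, which understates the level of that part. The place of RFC4 above NOTCH1 in this order is therefore uncertain. Its log2 fold change was 6.75 (interval 6.70 to 6.81), or 107.8-fold after scaling and 103.2-fold as deposited. RFC4 took 0.579% of the reads of A549-NICD1 and 0.00561% of those of A549-Vector, from 281203 and 2728 reads. It was the only one of the 10 genes past 2-fold, in a comparison where 0.827% of the tested genes were higher by over 2-fold and 0.329% lower, or 1.16% in either direction.

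**Figure D1:**
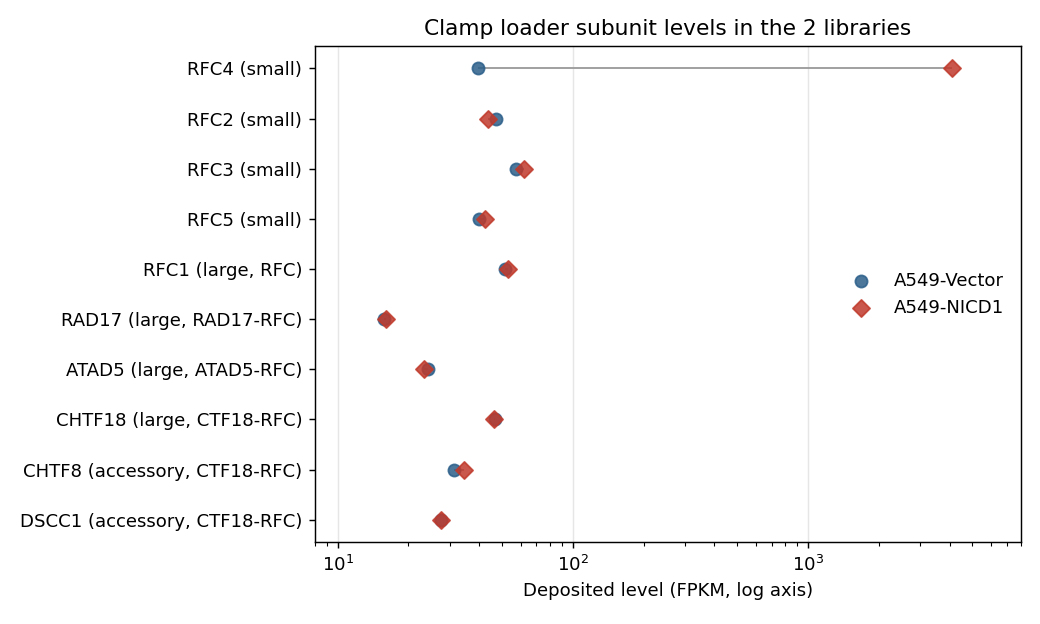
Deposited level (FPKM, log axis) of the 10 clamp loader subunits, with 1 circle for A549-Vector and 1 diamond for A549-NICD1 per gene and the role of each subunit in brackets. The 2 symbols of RFC4 lie at 39.5 and 4075 FPKM, whereas those of each other subunit nearly coincide between 15.8 and 61.8 FPKM.

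RFC4 (ENSG00000163918.10 in GENCODE 29) lies on chromosome 3 at chr3:186789880-186807058 (hg38, minus strand). The promoter windows of the 4 core subunits are shown because they share a complex and a role and RFC4 was nonetheless the only one past 2-fold. The sequences are from RefSeq (GRCh38.p14) and run 5′ to 3′ on the strand of the gene over 300 bases, 250 before the start that RefSeq annotates and 50 from it, which for each of the 4 genes lies inside the GENCODE gene rather than at its outermost end. Capitals mark matches, on either strand, to the motifs searched, which were the E2F letters TTTGGCGC, TTTCGCGC and GGCGGGAA, the RBPJ letters TGGGAA, the CCAAT box CCAAT and the NRF1 motif.
RFC4, chr3:186806433-186806732, minus strand: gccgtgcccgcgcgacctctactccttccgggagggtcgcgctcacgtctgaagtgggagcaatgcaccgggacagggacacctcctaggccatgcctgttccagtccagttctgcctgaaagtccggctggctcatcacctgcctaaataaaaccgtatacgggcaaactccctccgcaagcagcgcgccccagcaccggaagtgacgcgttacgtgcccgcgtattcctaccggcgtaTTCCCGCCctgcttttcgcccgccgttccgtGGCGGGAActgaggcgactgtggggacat
RFC2, chr7:74254350-74254649, minus strand: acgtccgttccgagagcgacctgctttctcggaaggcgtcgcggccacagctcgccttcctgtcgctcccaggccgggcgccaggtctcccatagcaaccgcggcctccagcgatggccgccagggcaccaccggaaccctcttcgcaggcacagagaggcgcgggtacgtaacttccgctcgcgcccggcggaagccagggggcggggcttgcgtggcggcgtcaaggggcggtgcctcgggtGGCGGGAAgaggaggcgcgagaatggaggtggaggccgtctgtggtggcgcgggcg
RFC3, chr13:33817899-33818198, plus strand: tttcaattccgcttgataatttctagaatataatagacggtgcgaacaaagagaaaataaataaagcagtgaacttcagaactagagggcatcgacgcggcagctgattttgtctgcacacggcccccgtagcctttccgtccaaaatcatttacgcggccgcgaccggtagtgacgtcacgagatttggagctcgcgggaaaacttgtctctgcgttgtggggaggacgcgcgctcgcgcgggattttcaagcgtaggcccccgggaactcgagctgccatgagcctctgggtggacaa
RFC5, chr12:118016453-118016752, plus strand: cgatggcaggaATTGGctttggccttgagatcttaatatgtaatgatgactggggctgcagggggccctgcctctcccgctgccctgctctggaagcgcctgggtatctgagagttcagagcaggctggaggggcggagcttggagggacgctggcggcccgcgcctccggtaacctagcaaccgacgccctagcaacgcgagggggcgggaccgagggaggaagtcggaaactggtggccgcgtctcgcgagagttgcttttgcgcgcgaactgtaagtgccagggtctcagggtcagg

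The RFC4 window held the E2F letters GGCGGGAA at 2 places, at position −10 from the start on the opposite strand and at position 22 on the same strand. Positions give the first base of a match in the printed sequence, with the annotated start as position 1 and the base before it as −1. E2F factors drive genes of DNA replication in the cell cycle. The RFC2 window held the same letters at position −6 on the same strand, and 4.24% of all 35116 windows held an E2F match. Other forms of the E2F motif were not searched, so windows without a match may still hold one of them. RBPJ is the DNA-binding partner of NICD1, and its letters were found in 24.0% of all windows but in none of the 4 shown here, which says nothing of sites elsewhere in these genes, for instance further downstream. Among the 8 clamp loader genes with a window, TGGGAA occurred in those of CHTF8 and RAD17. The RFC5 window held a CCAAT match at the far end, at position −239 on the opposite strand, a motif found in 34.6% of all windows and also in those of RFC1, RAD17 and CHTF18. No window of these genes held the NRF1 motif (1.24% of all windows), and no 2 matches overlapped. The GC content was 63.3% for RFC4, 72% for RFC2, 53% for RFC3 and 63.7% for RFC5, beside a median of 58.7% over all windows. A match is a string of letters and was not tested as a binding site, and sequence outside these windows was not searched.

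NOTCH1, the overexpressed gene, was at 2865 FPKM in A549-NICD1 and 5.40 FPKM in A549-Vector, with a log2 fold change of 9.09 (interval 9.06 to 9.17). The overexpressed gene was thus high in the library labelled for it. By log2 fold change with 0.1 FPKM added, NOTCH1 held rank 1 and RFC4 rank 2 among the tested genes, an order that for genes with 1 read or none in A549-Vector depends on the value added. In A549-NICD1 RFC4 had fewer reads than NOTCH1 (281203 against 1293833, or 0.579% and 2.67% of the library) but a higher deposited FPKM. The NOTCH1 value is divided by the length of the whole gene (9306 bases), which understates the level of the shorter NICD1 part. The higher FPKM of RFC4 therefore does not show that RFC4 was higher per length.

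The genes whose log2 fold change was nearest to that of RFC4 were, in this order, TFF1, PROK1, NOTCH1, SCGB1A1 and SNAI2, at distances of 1.37 to 2.74 on the log2 scale, over 2 libraries. TFF1, a secreted trefoil peptide, was at 7.20 and 0.0836 FPKM. This rests on 86 reads against 1 read, a ratio of 90.0 after scaling (interval 15.7 to 3594). Reads in this paragraph are the fewest that the values allow, so true reads can be a multiple and the intervals may be too wide. PROK1, which encodes the secreted factor prokineticin 1, was at 2.55 and 0.0150 FPKM, that is 170 reads against 1 read and a ratio of 178 (31.5 to 7065), an interval that holds the 107.8-fold of RFC4. SCGB1A1, a secretory protein of airway club cells, was at 1.64 FPKM in A549-NICD1 and listed at 0 in A549-Vector. Taken as 9 reads against a floor of 3 reads per library, it was at least 3.14-fold higher. This bound may be too low, since true reads can be a multiple of 9. SNAI2, a transcription factor of the Snail family, was at 9.68 and 0.536 FPKM. Apart from NOTCH1 these genes reached at most 9.68 FPKM in A549-NICD1, so none combined a change of this size with a level near that of RFC4.

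Genes beside RFC4 in the order of levels did not share its change. In A549-Vector the gene next above RFC4 was TNPO1, a nuclear import receptor, at 39.48 FPKM, and in A549-NICD1 this gene was at 38.7 FPKM. The gene next below RFC4 in A549-NICD1 was RPS2, a ribosomal protein gene, at 3109 FPKM, and it was the highest gene of A549-Vector at 3028 FPKM.

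The other subunits of the core differed little between the libraries. RFC2, which like the other core subunits carries an ATPase fold, was at 43.6 FPKM in A549-NICD1 and 47.1 FPKM in A549-Vector (log2 fold change −0.047, interval −0.11 to 0.018). RFC3 was at 61.8 and 57.2 FPKM, the highest core subunit of A549-Vector (0.18, 0.12 to 0.23). RFC5 was at 42.5 and 40.1 FPKM (0.15, 0.088 to 0.21). RFC2 was thus on the lower side of the vector control and RFC3 and RFC5 on the higher side, and only the last pair lay outside counting error.

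The large subunits and the CTF18 accessory subunits showed differences of similarly small size. RFC1, the large subunit of the canonical loader, was at 52.9 FPKM in A549-NICD1 and 51.4 FPKM in A549-Vector (log2 fold change 0.11, interval 0.070 to 0.14). RAD17, the lowest of the 10 genes in both libraries, was at 16.1 and 15.8 FPKM (0.088, 0.0036 to 0.17). ATAD5 was at 23.3 and 24.3 FPKM, and after scaling its log2 fold change was 0.00022 (−0.045 to 0.045), smaller in size than that of all but 0.0964% of the tested genes. CHTF18 was at 46.0 and 46.7 FPKM (0.043, −0.0052 to 0.091). The accessory subunits parted, with CHTF8 at 34.6 and 31.2 FPKM (0.21, 0.15 to 0.27) and DSCC1 at 27.4 FPKM in both libraries (0.063, −0.010 to 0.14). CHTF8 had the largest change of the 9 genes other than RFC4, and 69.3% of the tested genes had a smaller one.

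Without RFC4 the clamp loader genes had a median log2 fold change of 0.088, with 8 genes higher in A549-NICD1 and RFC2 lower, whereas the median of all tested genes was 0.0012 and 50.2% of them were higher. The intervals of 5 genes (RFC1, RFC3, RFC5, RAD17 and CHTF8) lay above 0, those of the other 4 held 0, and none lay below. Intervals were not computed for all tested genes, so this count has no share beside it and does not set the clamp loader genes apart. The direction of the small changes depended on the scaling, which shifts all log2 fold changes by 0.063. On the values as deposited, 6 genes were higher and RFC2, ATAD5 and CHTF18 lower, with a median of 0.026, beside 36.7% of all tested genes higher and a median of −0.061 on the same values, and the intervals of RFC2 and ATAD5 then lay below 0. All 9 changes lay inside the range from the 5th to the 95th percentile of the tested genes, −0.45 to 0.39.

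**Figure D2:**
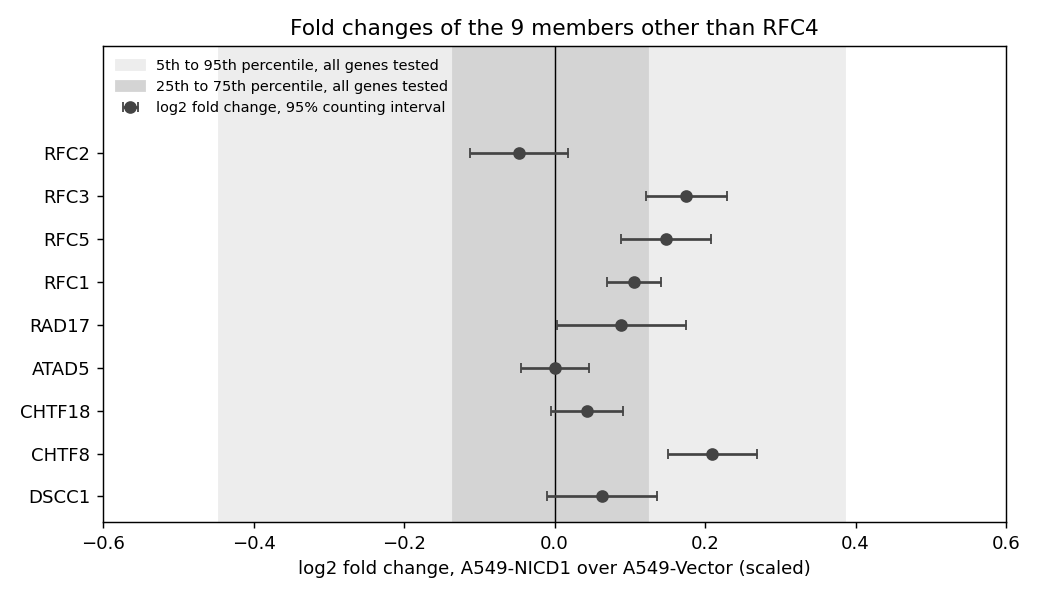
Log2 fold change, A549-NICD1 over A549-Vector after scaling, of the 9 clamp loader genes other than RFC4, with 95% counting intervals as bars and grey bands for the middle of all tested genes (25th to 75th percentile, −0.13 to 0.12, and 5th to 95th percentile, −0.45 to 0.39). CHTF8 at 0.21 and RFC3 at 0.18 lie highest and RFC2 at −0.047 lowest, and every point lies inside the outer band.

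Between the libraries, the balance of the core differed mainly in RFC4. In A549-Vector the 4 core subunits were at similar levels, RFC3 with 31.1%, RFC2 with 25.6%, RFC5 with 21.8% and RFC4 with 21.5% of their summed FPKM. In A549-NICD1 RFC4 held 96.5% of the sum, and RFC2, RFC3 and RFC5 held 1.03%, 1.46% and 1.01%. RFC4 thus went from the lowest of the 4 to the highest. RFC4 was at 0.820 times the mean of RFC2, RFC3 and RFC5 in A549-Vector (interval 0.787 to 0.855) and at 82.6 times this mean in A549-NICD1 (81.2 to 84.0). The mean itself was 48.1 FPKM in the vector control and 49.3 FPKM with NICD1, so the change in the ratio lay in RFC4. The 10 genes together summed to 381 FPKM in A549-Vector, with 10.4% from RFC4, and to 4423 FPKM in A549-NICD1, with 92.1% from RFC4.

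Among the other core subunits a smaller shift concerned RFC2. The ratio of RFC2 to RFC3 was 0.824 in A549-Vector and 0.706 in A549-NICD1, a log2 change of −0.22 (interval −0.31 to −0.14). The ratio of RFC2 to RFC5 was 1.18 and 1.03 (−0.20, −0.28 to −0.11). The ratio of RFC5 to RFC3 was 0.70 and 0.687, and its change held 0 (−0.027, −0.11 to 0.053). RFC2 therefore took 32.6% of the core without RFC4 in A549-Vector and 29.5% in A549-NICD1, while RFC3 took 39.6% and 41.8% and RFC5 27.7% and 28.7%. These ratios are taken within a library and do not depend on the scaling.

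**Figure D3:**
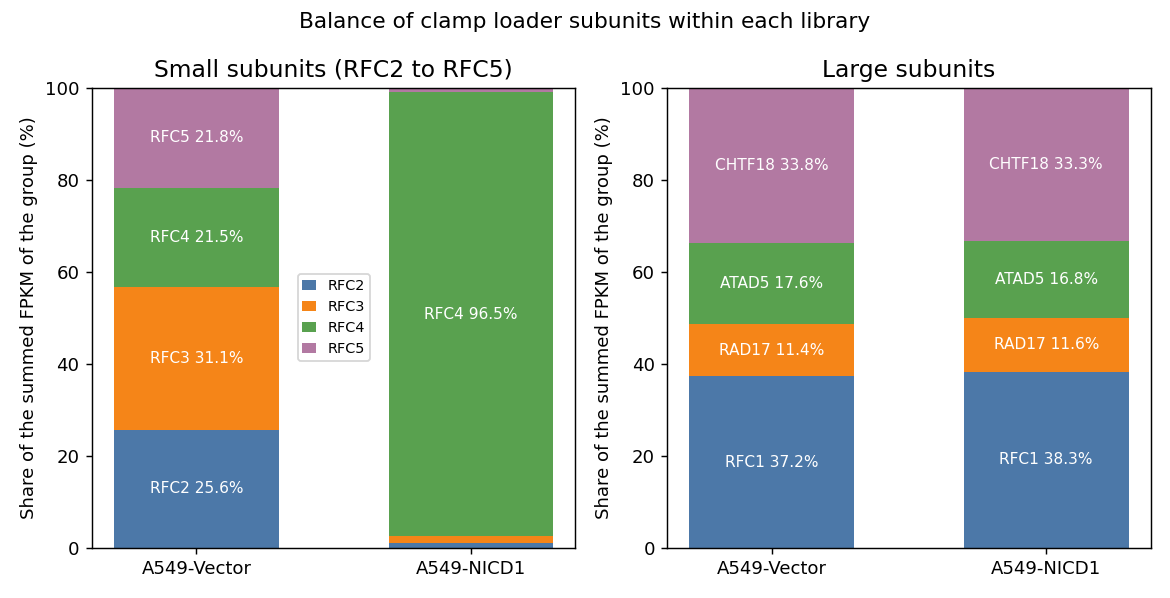
Share of each gene in the summed FPKM of the core subunits (left) and of the large subunits (right) in each library, as stacked bars in percent. RFC4 fills 96.5% of the core in A549-NICD1 and 21.5% in A549-Vector, whereas among the large subunits the widest difference is that of RFC1, at 38.3% and 37.2%.

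The balance among the large subunits, which compete for the shared core, was close to equal in the 2 libraries. RFC1 made up 37.2% of the summed level of the 4 large subunits in A549-Vector and 38.3% in A549-NICD1. CHTF18 made up 33.8% and 33.3%, ATAD5 17.6% and 16.8%, and RAD17 11.4% and 11.6%. Their sum was 138.1 FPKM in the vector control and 138.3 FPKM with NICD1. The alternative large subunits together were at 1.69 times the level of RFC1 in A549-Vector and at 1.61 times in A549-NICD1 (log2 change −0.066, interval −0.11 to −0.017). By single loader, the ratio of ATAD5 to RFC1 was 0.473 and 0.439 (−0.11, −0.16 to −0.048), that of CHTF18 to RFC1 was 0.908 and 0.869 (−0.063, −0.12 to −0.0027), and that of RAD17 to RFC1 was 0.307 and 0.304 (−0.017, −0.11 to 0.075). ATAD5 and CHTF18 were thus slightly lower relative to RFC1 in A549-NICD1, and for RAD17 no difference was detectable at this depth.

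By mRNA level per length, the large subunits together exceeded each single core subunit in A549-Vector. Their sum was 3.50 times the level of RFC4, 3.45 times that of RFC5 and 2.93 times that of RFC2. In A549-NICD1 the sum was 0.0339 times the level of RFC4 but still 3.25 times that of RFC5 and 3.17 times that of RFC2. RFC4 was the lowest core subunit of A549-Vector, by a margin over RFC5 within counting error (ratio of RFC5 to RFC4 1.01, interval 0.968 to 1.06), and RFC5 was the lowest in A549-NICD1. Against the mean of RFC2, RFC3 and RFC5 the sum of the large subunits was 2.87 in A549-Vector and 2.80 in A549-NICD1 (log2 change −0.034, interval −0.076 to 0.0080). The ratio of large subunits to the rest of the core was therefore not detectably different at this depth.

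In the CTF18 loader, the accessory subunits were lower than the large subunit in both libraries. CHTF18 made up 44.3% of the 3 subunits in A549-Vector and 42.6% in A549-NICD1, CHTF8 29.7% and 32.0%, and DSCC1 26.0% and 25.4%. The ratio of CHTF8 to CHTF18 was 0.669 in A549-Vector and 0.751 in A549-NICD1 (log2 change 0.17, interval 0.091 to 0.24). That of DSCC1 to CHTF18 was 0.587 and 0.595, and its change held 0 (0.020, −0.067 to 0.11). The subunits of this loader thus differed among themselves by CHTF8, whose exons also share 10.8% of their bases with HAS3 on the opposite strand (HAS3 2.14 FPKM in A549-NICD1 and 2.88 FPKM in A549-Vector).

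The order of the 10 genes by level was the same in the 2 libraries except for RFC4 and the middle places. In A549-Vector it ran from RFC3 and RFC1 over RFC2, CHTF18, RFC5, RFC4, CHTF8, DSCC1 and ATAD5 to RAD17. The neighbours RFC2 and CHTF18 did not differ beyond counting error (ratio 1.01, interval 0.971 to 1.05), nor did RFC5 and RFC4. In A549-NICD1 RFC4 led and CHTF18 stood above RFC2, and RFC2 and RFC5 did not differ beyond counting error (1.03, 0.983 to 1.07). The last 4 places were held by CHTF8, DSCC1, ATAD5 and RAD17 in both.

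The clamps that these loaders handle were also compared. PCNA was at 188 FPKM in A549-NICD1 and 186 FPKM in A549-Vector (log2 fold change 0.076, interval 0.040 to 0.11), and the ratio of PCNA to RFC1 was 3.56 and 3.63. RFC4 was at 0.212 times PCNA in A549-Vector and 21.7 times in A549-NICD1. Of the 9-1-1 clamp, RAD9A was at 12.7 and 11.2 FPKM (0.24), HUS1 at 9.47 and 8.29 FPKM (0.25) and RAD1 at 15.0 and 17.2 FPKM (−0.13, interval −0.20 to −0.066). The ratio of RAD17 to RAD1 was accordingly 1.07 in A549-NICD1 and 0.920 in A549-Vector, whereas that of RAD17 to RAD9A was 1.27 and 1.41 and that of RAD17 to HUS1 1.70 and 1.91. The clamp subunits thus did not move in 1 direction. The paralogs RAD9B and HUS1B lay under 1 FPKM in both libraries and were not tested. HUS1B was at 0.281 FPKM in A549-NICD1 and 0.782 FPKM in A549-Vector, from 14 and 39 reads. Its log2 fold change of −1.16 with 0.1 FPKM added was past 2-fold, but its interval, taken on reads alone (−2.41 to −0.50), also holds changes under 2-fold. Without the filter on low values, 371 genes were higher and 144 lower by over 2-fold among 17178.

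The tested genes that work with the clamps were all within 2-fold, which does not set them apart, since 1.16% of all tested genes were past 2-fold in either direction. Over 7 lists of partner genes, 40 of 42 were tested, 30 were higher and 10 lower in A549-NICD1, with a median log2 fold change of 0.078 and a range from −0.29 to 0.30. Of all tested genes 50.2% were higher. On the values as deposited, 25 partner genes were higher and 15 lower, beside 36.7% of all tested genes higher. The intervals of 22 genes lay above 0, those of 7 below, and those of 11 held 0, with the scaling. These intervals were not counted without the scaling or for all tested genes, so no share stands beside them. Reads were the fewest that the values allow, so some of the 11 intervals may be too wide.

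By role, USP1 and WDR48, the deubiquitinase of PCNA and its cofactor that work with ATAD5, were at 67.4 and 18.9 FPKM in A549-NICD1 and at 67.2 and 18.3 FPKM in A549-Vector. The ratio of ATAD5 to USP1 was 0.345 and 0.362. Of the 8 subunits of polymerases delta and epsilon, 6 were higher and 2 lower (median 0.078), from POLE3 at 0.24 to POLD4 at −0.29, the latter with an interval that held 0. The POLD4 interval rests on 94 and 121 reads, the fewest that its values allow, and may be too wide. Of 8 PCNA-bound fork and repair proteins, 5 were higher and 3 lower (median 0.047), and the list's median was −0.016 on the values as deposited. LIG1, the ligase of Okazaki fragments, and PCLAF, a PCNA-binding factor, had log2 fold changes of −0.12 and −0.17. Of 7 ATR checkpoint partners of the 9-1-1 clamp, 6 were higher and 1 lower (median 0.14). The lower one was the ATR activator ETAA1, at 9.38 and 12.0 FPKM (−0.29), and the kinases ATR and CHEK1 were at 0.19 and 0.14.

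Of 6 genes of fork-coupled cohesion, the process in which the CTF18 loader takes part, 4 were higher and 2 lower (median 0.028), from DDX11 at 0.11 to ESCO1 at −0.11, and on the values as deposited the median was −0.034. Of 5 AAA+ relatives of the clamp loaders, 4 were higher and 1 lower (median 0.15). ORC5, a subunit of the origin recognition complex, was at 15.9 and 13.5 FPKM (0.30), and CDC6, which loads the replicative helicase with it, was at 68.4 and 59.3 FPKM (0.27). None of these genes approached the change of RFC4.

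**Figure D4:**
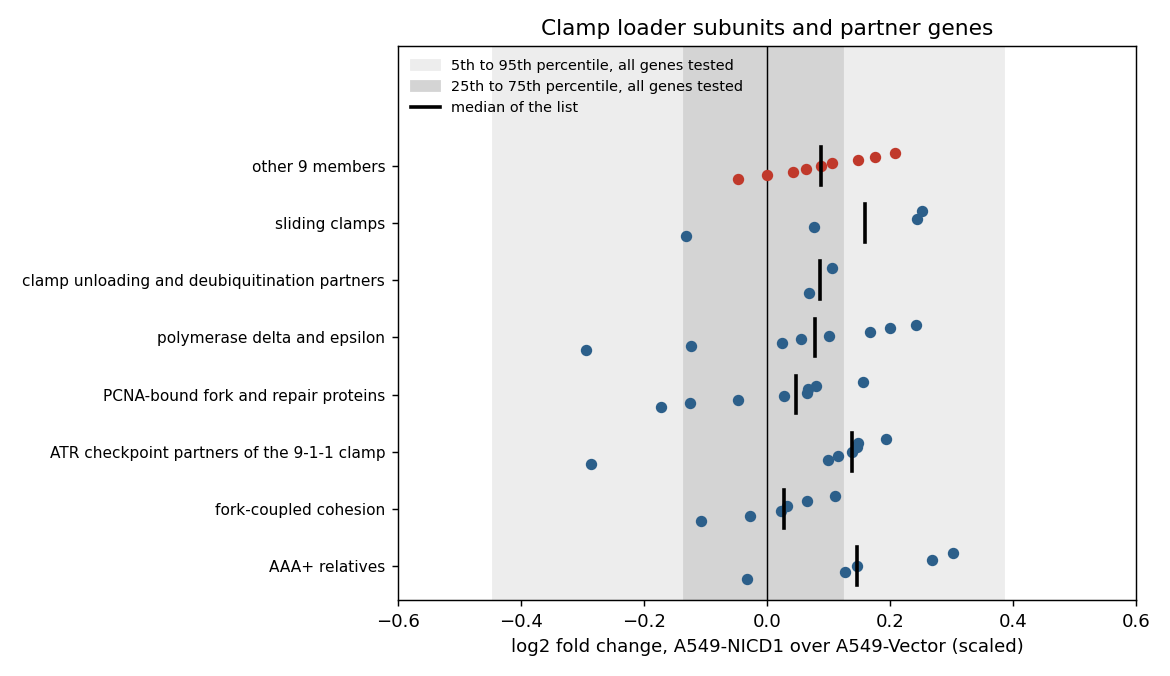
Log2 fold change, A549-NICD1 over A549-Vector after scaling, of the 9 clamp loader genes other than RFC4 (red) and of the 40 tested partner genes (blue) by list, with 1 point per gene, a black bar at each median and grey bands for all tested genes. The medians lie between 0.028 and 0.16 after scaling (those of the PCNA-bound and the cohesion lists are −0.016 and −0.034 without it), and every gene lies between −0.29 and 0.30.

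Windows of 100 bases, taken every 50 bases along the longest transcript of each of the 10 genes, were not found in transcripts of another gene. Other transcripts of the 10 genes were not searched. No exon overlapped another gene on the same strand. On the opposite strand, exons of RFC4 overlapped EIF4A2 over 21 bases (0.701% of the exon bases of RFC4), those of RAD17 overlapped TAF9 (9.14%) and AK6 (5.05%), and those of RFC5 overlapped WSB2 (5.72%). ATAD5 and CHTF18 had smaller overlaps of the same kind, and RFC1, RFC2, RFC3 and DSCC1 had none. The study describes its sequencing as strand-specific, but whether the counting used strand is not given in the sources used here. If it did not, reads in these stretches cannot be told apart from those of the partner gene.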

How the data were processed

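The data are mRNA sequencing values of a single A549-NICD1 library and a single A549-Vector library, with conditions taken from the sample labels. The authors deposited 1 value per gene and library, taken as FPKM because the values are whole reads divided by gene length and depth. Per the labels, their processing notes name hg38, Bowtie2 and HTSeq, without versions or settings. The unit and the annotation are not given in the sources used here. A total of 27 rows with date numbers as names were left out of 19225.

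The depth was the number at which the 150 lowest values, read as 1 read, gave whole gene lengths within 0.03 bases (94.7% in A549-NICD1 and 93.3% in A549-Vector, against 4.67% and 6.67% with a depth raised by 0.1%). Reads of a gene were the fewest whole reads that both values allow at lengths of 100 to 20000 bases within 0.001 reads, so true reads can be a multiple and intervals are then too wide. Scaling divided A549-NICD1 by the mean log ratio left after trimming 30% of ratios and 5% of levels at each end. Intervals are 95% Clopper-Pearson for fold changes and by the delta method for ratios within a library. A gene was called past a 2-fold change, since 1 library per condition allows no test. Alternatives covered scaling, pseudocount, low-value filter and length division. Depth, scaling, fold changes and intervals were checked on simulated reads, the intervals from the true simulated reads. Recovery of reads was checked only for genes with many reads, and any whole divisor of the true reads was accepted. The genes named were the 10 clamp loader genes, NOTCH1, the partner lists, the 5 genes nearest to RFC4 in log2 fold change and its neighbours by level, of which 1 is not reported here. Members and lists were chosen with earlier results of these data known. Python 3.11.15, pandas 2.3.3, scipy 1.17.1 and GENCODE 29 were used.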

Additional observations from a re-analysis of the deposited data

How the results depend on the processing

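No paired analysis was possible because neither condition had more than 1 library. No alternative changed the direction of RFC4, and it was past 2-fold under all of them. Of 186 alternative values, 149 stayed within the range set around the reported value and 37 moved beyond it. For fold changes, ratios and shares this range was the counting interval, for a list median that of its middle gene or genes. For counts it was a fixed fold range, and neither describes variation between cultures. The log2 fold change of RFC4 was 6.69 without scaling and also 6.69 with values divided by their sum (TPM). The median of the sliding clamps was 0.058 without a filter on low values, that of the PCNA-bound proteins was −0.016 without scaling and −0.0088 as TPM, and that of the cohesion genes was −0.034 and −0.027. RFC4 over the highest of RFC2, RFC3 and RFC5 alone was 65.9 in A549-NICD1 and 0.690 in A549-Vector, and on reads not divided by length RFC4 over their mean was 59.9 and 0.597. The summed large subunits over the mean of RFC2, RFC3 and RFC5 in place of the lowest core subunit were 2.80 and 2.87, and on reads not divided by length, over the lowest, 8.08 and 10.8. On such reads RFC1 made up 42.7% and 41.4% of the large subunits, ATAD5 26.3% and 27.4%, CHTF18 23.4% and 23.7%, and RAD17 7.64% and 7.50%. The genes higher and lower by over 2-fold, 103 and 41, were 47 and 7 with 1 FPKM added, 371 and 144 without a filter, and 42 and 9 at 5 FPKM or more. Leaving NOTCH1 and RFC4 out of the scaling, an alternative chosen after seeing the data, moved no value of the clamp loader genes beyond its interval. One limit is that 1 library per condition gives no spread between cultures, so differences of the size seen in the clamp loader genes other than RFC4 cannot be told apart from it.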
